A study of Ovis aries with 8 samples.

Results

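Ezrin (EZR), radixin (RDX) and moesin (MSN), the ERM proteins, are described here in sheep embryonic stem cells together with their relative merlin (NF2) and the surface sialomucin podocalyxin (PODXL). The genes were taken by symbol from the deposited table. All 5 were present among its 28475 genes, and all 5 were among the 14779 genes kept by a filter on low values. They were chosen by the TPM of MSN, which was already known to be lower in naive-like than in primed cells. Every difference between the states is therefore given for them as a description, without a test.

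ERM proteins fasten the plasma membrane to the actin cortex. A FERM domain at the amino terminus holds the tails of membrane proteins, and the carboxy terminus binds actin once the folded protein has been opened by phosphorylation. Merlin has the same FERM domain but lacks the ERM type of actin-binding tail, and is known as a tumour suppressor that acts upstream of the Hippo kinases. Podocalyxin, of the CD34 family, is joined to ezrin through NHERF scaffolds in kidney epithelium, and in human pluripotent cells it carries the glycans read by common surface marker antibodies. RNA levels were measured here, and neither protein amount nor phosphorylation was.

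There were 4 groups of 2 polyadenylated RNA libraries, namely primed line A, primed line B, naive-like cells without feeders, and naive-like cells on mouse embryonic fibroblasts (MEFs). Both primed lines were labelled wild-type, and the naive-like cells were labelled only as converted from primed. Primed cells, at passage 10, were grown without feeders in medium with Activin A and bFGF (20 ng/mL each), the tankyrase inhibitor endo-IWR-1 (3 µM) and 1% BSA. Naive-like cells were at passage 12. Their medium combined LIF and Activin A (20 ng/mL each) with ascorbic acid (50 µg/mL), 1 µM PD0325901 against MEK, 2 µM XAV-939 against tankyrase, 2 µM Go6983 against protein kinase C and 1.2 µM CGP77675 against SRC. All cells derived from the inner cell mass. State, medium and passage changed together and cannot be told apart, and the labels do not name the line or lines that gave rise to the naive-like cells. Nor do they say whether the libraries of a group were separate cultures, so the spread behind each p-value may be technical.

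In each library 13294 to 13664 genes reached 1 TPM. The depth behind a value is unknown, because TPM hold no counts. Of 7 pluripotent cell markers tested, 3 were higher in naive-like cells, 1 was lower and 3 did not pass, against 28.6% higher and 22.1% lower of all genes. POU5F1 was at 609.7 to 662 TPM in primed and at 1532 to 1706 TPM in naive-like libraries. NANOG was at 9.12 to 16.4 against 83.0 to 136 TPM. SOX2 stood at 290.2 to 324 TPM and DPPA4 at 0.180 to 1.74 TPM over the 8 libraries. Of 5 trophectoderm markers present, ELF5 alone was tested, and it was lower in naive-like cells (−1.18 ± 0.201 log2, SE, adjusted p = 0.00106, limma). Of 6 hypoblast markers, GATA4, GATA6 and SOX17 stayed under 1 TPM in every library, and the 2 tested, APOA1 and FOXA2, were lower in naive-like cells. APOA1 was at 376 to 469 TPM in primed and 69.8 to 90.9 TPM in naive-like libraries, and FOXA2 at 0.890 to 1.92 against at most 0.239 TPM. FOXA2 passed the filter only through primed libraries. XIST and Y-linked genes were not analysed here.

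MSN varied most among the 5 genes. It was at 84.3 and 76.0 TPM in line A and at 27.3 and 23.4 TPM in line B. In naive-like cells it was at 0.473 and 1.09 TPM without feeders and at 5.93 and 5.04 TPM on MEFs. The 4 groups did not overlap: line A was highest, then line B, then naive-like cells on MEFs, and feeder-free naive-like cells were lowest. In RNA of whole cultures, fewer cells that hold a transcript and less of it per cell cannot be told apart. The highest library held 178 times the level of the lowest, a range of 5.85 on the scale of log2(TPM + 1).

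EZR was the most abundant of the ERM genes in every library. It was at 174 and 165 TPM in line A and at 181 and 172 TPM in line B, where the lines overlapped. Feeder-free naive-like libraries held 274 and 287 TPM, and those on MEFs 229.7 and 236 TPM. Every naive-like library was thus above every primed one, and the order was the reverse of that of MSN. The range over libraries was 0.80 on the log2 scale.

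RDX was at 41.8 and 44.7 TPM in line A, at 55.2 and 52.1 TPM in line B, at 37.4 and 39.8 TPM in feeder-free naive-like cells and at 37.5 and 36.7 TPM on MEFs. Line B was highest, and both naive-like groups, which overlapped, were lowest. NF2 stood at 29.9 and 26.8 TPM in line A and at 29.3 and 27.6 TPM in line B, with overlap. It was at 35.8 and 37.8 TPM in feeder-free naive-like cells and at 34.0 and 34.6 TPM on MEFs, above all primed libraries.

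PODXL was abundant in all 4 groups. Its levels were 195 and 168 TPM in line A, 202 and 192 TPM in line B, 242 and 204 TPM in feeder-free naive-like cells and 178 and 169.9 TPM on MEFs. Feeder-free naive-like libraries were above all others, and those on MEFs overlapped with line A. The mean over libraries, 194 TPM, lay at the 94.8th percentile of tested genes, close to that of EZR (215 TPM, 95.5th), while those of RDX, NF2 and MSN were at 43.1, 32.0 and 27.9 TPM.

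**Figure D1:**
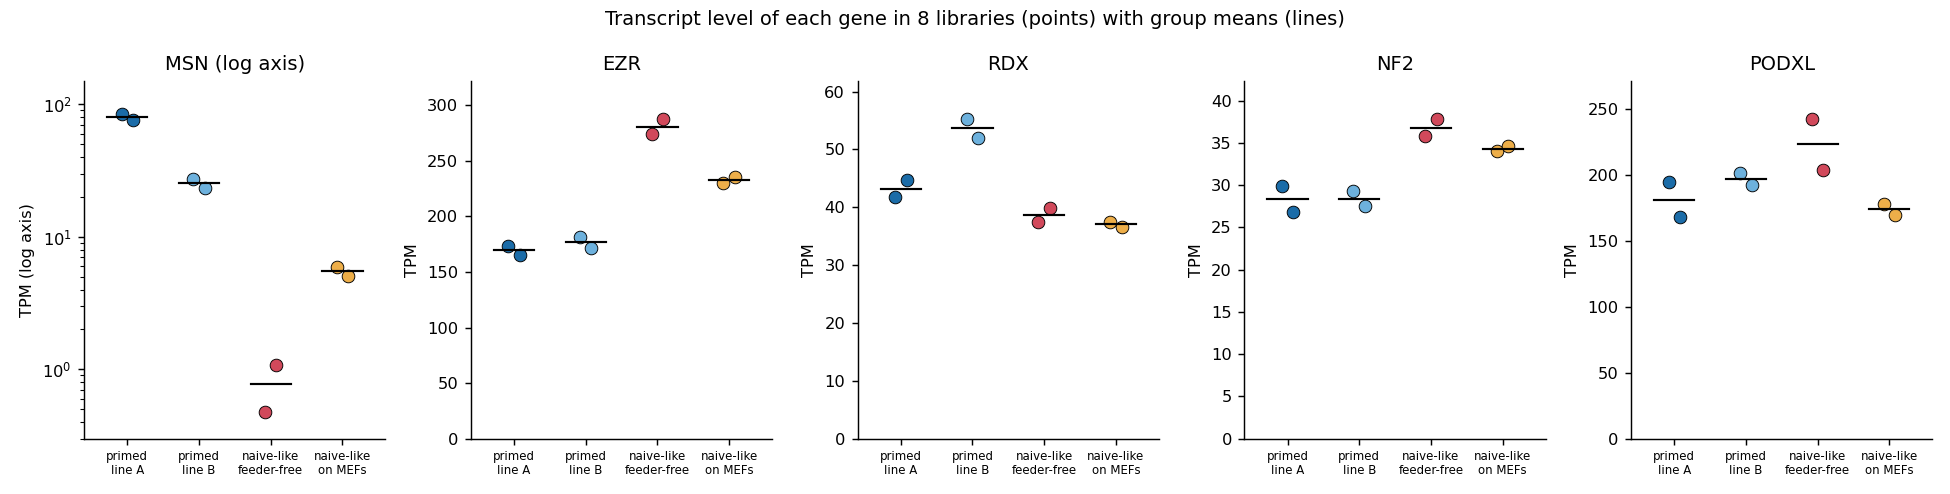
TPM of MSN (log axis), EZR, RDX, NF2 and PODXL (linear axes from 0) in 8 libraries, with points for libraries and lines for the means of the 4 groups. MSN spans 0.473 to 84.3 TPM without overlap between groups, while PODXL lies between 168 and 242 TPM.

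Between the states, MSN averaged 3.13 ± 2.75 TPM (SD, n = 4) in naive-like and 52.7 ± 31.9 TPM (n = 4) in primed libraries, a difference of −3.78 ± 0.593 (log2(TPM + 1), SE). These SDs hold the differences between lines and between feeder conditions. EZR averaged 257 ± 28.4 against 173 ± 6.70 TPM (0.56 ± 0.0767) and NF2 35.6 ± 1.67 against 28.4 ± 1.42 TPM (0.32 ± 0.0607). RDX averaged 37.8 ± 1.35 against 48.4 ± 6.24 TPM, a difference of −0.34 ± 0.0884. PODXL was at 199 ± 32.5 against 189 ± 14.8 TPM (0.06 ± 0.109), and its sign turned with quantile normalization and without feeder-free replicate 1.

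The libraries of the states did not overlap in 4 of the 5 genes, as in 47.7% of all genes tested. Feeder-free naive-like cells alone did not overlap with primed cells in any of the 5, as in 59.8% of genes. Neither arm of that comparison was grown on MEFs. The differences there were −4.72 ± 0.148 for MSN, 0.70 ± 0.0468 for EZR, −0.31 ± 0.0598 for RDX, 0.37 ± 0.0671 for NF2 and 0.24 ± 0.0830 for PODXL. The value for PODXL was 0.11 without feeder-free replicate 1 and 0.36 without replicate 2. Both sets of differences share the primed libraries and the feeder-free naive-like libraries.

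Set against each line by itself, MSN in feeder-free naive-like cells differed by −5.53 ± 0.171 from line A and by −3.91 ± 0.171 from line B. In naive-like cells on MEFs the differences were −3.65 ± 0.171 and −2.02 ± 0.171. In TPM, line A held 103 times and line B 32.5 times the mean of feeder-free naive-like cells, and 14.6 and 4.62 times that of cells on MEFs. Against the feeder-free libraries one at a time, the ratios were 73.8 and 23.3 without replicate 1 and 169 and 53.5 without replicate 2. For EZR the differences of feeder-free naive-like cells from line A (0.73 ± 0.0540) and from line B (0.67 ± 0.0540) were close to each other. RDX differed by −0.16 ± 0.0691 from line A and by −0.46 ± 0.0691 from line B, and on MEFs by −0.22 ± 0.0691 and −0.52 ± 0.0691. PODXL in feeder-free naive-like cells differed by 0.30 ± 0.0958 and 0.17 ± 0.0958 from lines A and B. On MEFs its differences were −0.05 ± 0.0958 and −0.18 ± 0.0958.

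Since TPM are corrected for transcript length, the 3 ERM genes can be added and their shares compared. Their sum was 293 ± 9.89 TPM (SD, n = 2) in line A, 256 ± 11.9 TPM in line B, 320.3 ± 11.3 TPM in feeder-free naive-like cells and 275 ± 3.08 TPM on MEFs. MSN made up 27.3 ± 1.07% of it in line A and 9.90 ± 0.621% in line B. It made up 0.241 ± 0.127% in feeder-free naive-like cells and 1.99 ± 0.251% on MEFs. The sum was thus higher in feeder-free naive-like cells than in either line, with MSN its smallest part. With median-ratio scaling the sum was 318 TPM in feeder-free naive-like cells, 305 TPM in line A and 254 TPM in line B, so the gap to line A was smaller.

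The share of EZR was 57.9 ± 0.117% in line A, 69.1 ± 0.516% in line B, 87.7 ± 0.230% in feeder-free naive-like cells and 84.5 ± 0.618% on MEFs. RDX held 14.8 ± 1.19%, 21.0 ± 0.105%, 12.0 ± 0.103% and 13.5 ± 0.367% in the same order. In TPM, feeder-free naive-like cells held 79.3 less MSN and 111 more EZR than line A, and 24.6 less MSN and 104 more EZR than line B. The 3 genes are paralogs, and how reads that match more than one of them were assigned was not tested.

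**Figure D2:**
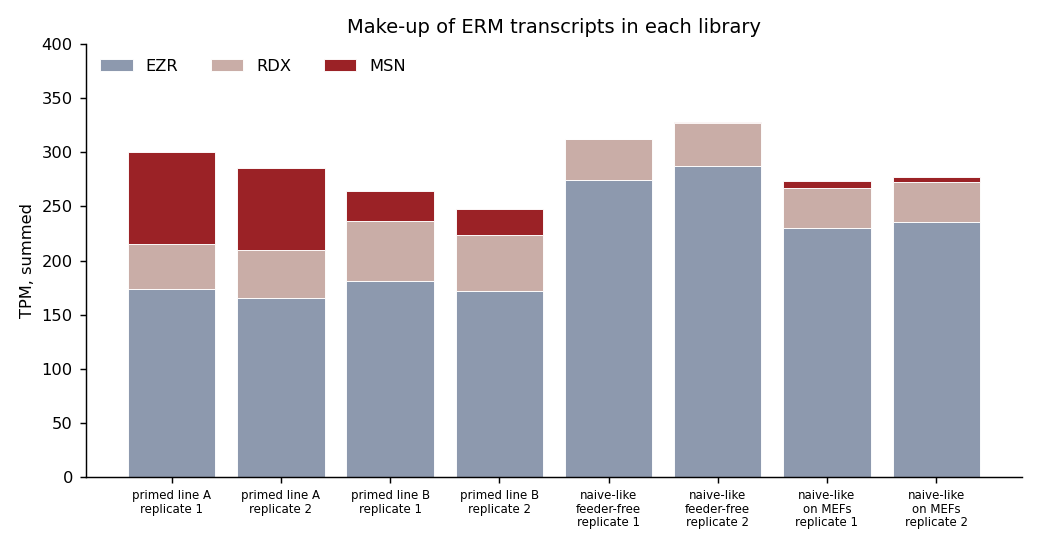
Stacked bars give the TPM of EZR, RDX and MSN in each of 8 libraries. EZR holds most of every bar, and the MSN segment shrinks from 27.3% in line A to 0.241% in feeder-free naive-like cells.

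Line B was compared with line A to describe how far cells grown in the same medium differed in these genes. MSN was lower in line B, at 25.3 ± 2.76 TPM (SD, n = 2) against 80.1 ± 5.85 TPM in line A, a 3.16-fold ratio of means. The difference of −1.62 ± 0.171 passed with an adjusted p of 0.00132 (limma, Benjamini-Hochberg), and it passed under all 17 alternatives run (adjusted p 8.58e-05 to 0.0199). RDX was higher in line B (53.6 ± 2.22 against 43.2 ± 2.03 TPM, 0.30 ± 0.0691, adjusted p = 0.0380).

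That call for RDX was lost under 12 of 17 alternatives, among them the removal of any single primed library (adjusted p 0.0840 to 0.191). EZR, NF2 and PODXL did not pass. Their 95% intervals, not adjusted for the number of genes, ran from −0.07 to 0.18, from −0.17 to 0.18 and from −0.10 to 0.34. Of the 5 genes 1 was called higher and 1 lower in line B, against 4.18% and 3.17% of all genes tested (7.36% in both directions). The lines did not overlap in 2 of the 5, against 54.8% of genes.

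Naive-like cells on MEFs were compared with feeder-free ones to describe how cultures with and without the supporting layer differed in the same medium. MSN was at 5.49 ± 0.629 TPM on MEFs and at 0.779 ± 0.433 TPM without them. The difference of 1.88 ± 0.171 had an adjusted p of 0.00102 and passed under all 17 alternatives (adjusted p 0.000561 to 0.0421), with values of 0.86 to 2.76 as the pseudocount went from 5 to 0.1. EZR was lower on MEFs, at 233 ± 4.30 against 281 ± 9.20 TPM (−0.27 ± 0.0540, adjusted p = 0.0316). Its call was lost under 7 of 17 alternatives, among them the removal of any single naive-like library (adjusted p 0.0512 to 0.199).

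PODXL was at 174 ± 5.92 TPM on MEFs and 223 ± 26.9 TPM without (−0.35 ± 0.0958, adjusted p = 0.0811, 95% interval −0.57 to −0.13). It passed with median-ratio scaling (adjusted p = 0.0337). NF2 (−0.10 ± 0.0775) and RDX (−0.06 ± 0.0691) did not pass, with intervals from −0.28 to 0.08 and from −0.21 to 0.10. Of the 5 genes 1 was called higher and 1 lower on MEFs, against 2.89% and 2.27% of all genes tested (5.16% in both directions). The feeder conditions did not overlap in 4 of the 5, against 52.6% of genes.

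Fibroblast markers moved with that comparison. Of 18 markers present, 13 were tested, of which 6 rose on MEFs, 2 fell and 5 did not pass, with a median of 0.57 against 0.02 over all genes. COL1A2, a chain of type I collagen, was at 38.0 TPM on MEFs and 0.133 TPM without (5.11 ± 0.128, adjusted p = 3.19e-06), COL3A1 at 18.7 against 0.103 TPM (4.15 ± 0.151), and the mesenchymal factor PRRX1 at 7.69 against 0.0134 TPM (3.09 ± 0.164). PRRX1 passed the filter only through the libraries on MEFs. LUM (−0.59 ± 0.106) and COL5A1 (−0.41 ± 0.0866) fell.

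The 18 markers summed to 379 to 380 TPM on MEFs, 172 to 186 TPM in feeder-free naive-like cells and 322 to 381 TPM in primed libraries. POSTN and FAP were listed at 0 in both feeder-free libraries, and on MEFs no marker was listed at 0 in both. MSN is abundant in fibroblasts, and the part that RNA of the mouse feeders had in its level was not tested. Some fibroblast markers also differed between the states. In feeder-free naive-like against primed cells 8 of the 13 tested fell and 1 rose (median −0.72), against 25.6% and 30.8% of all genes tested. Between the states 4 fell, 0 rose and 9 did not pass (median 0.0055), against 22.1% lower and 28.6% higher of all genes. COL1A2, which did not pass there, was at 37.0 and 39.0 TPM on MEFs and at 1.73 to 3.48 TPM in primed libraries. FBLN1, a matrix protein, fell from 175 to 56.9 TPM between the states (−1.61 ± 0.0633, adjusted p = 1.63e-07), and the receptor PDGFRB fell from 13.0 to 1.34 TPM (−2.61 ± 0.173, adjusted p = 3.35e-06). Their part in the difference in MSN was not tested.

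**Figure D3:**
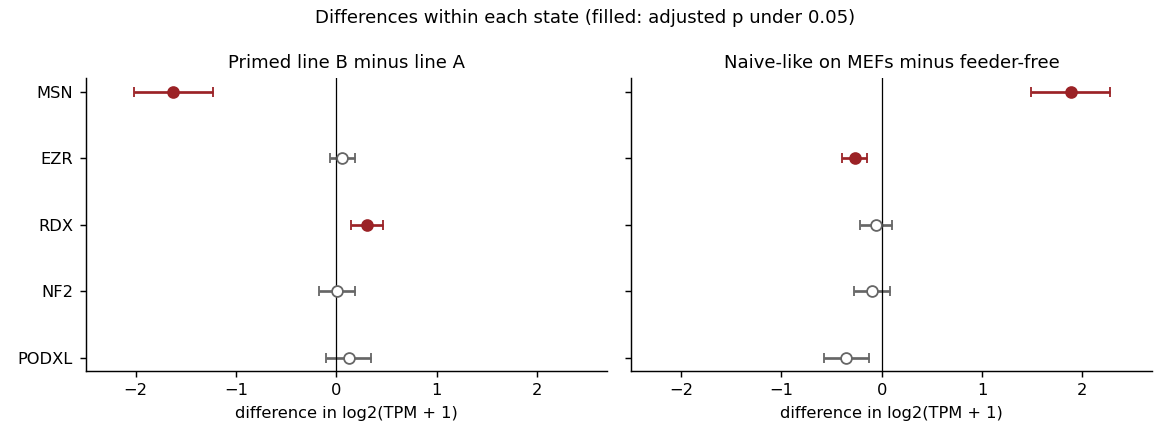
Differences in log2(TPM + 1) with 95% intervals from limma for the 5 genes, between the primed lines (left) and between feeder conditions of naive-like cells (right), with filled points for an adjusted p under 0.05. MSN is at −1.62 and 1.88, and the other 4 genes lie between −0.35 and 0.30.

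The genes whose profiles were most like that of MSN were found among 10537 others with a mean of at least 5 TPM, by the root mean square difference of log2(TPM + 1) from each gene's own mean over 8 libraries. KITLG, the ligand of the receptor KIT, was closest (0.46). It was at 51.7 and 36.5 TPM in line A, 15.8 and 19.9 TPM in line B, 0.200 and 0.804 TPM in feeder-free naive-like cells and 2.40 and 0.962 TPM on MEFs. Like MSN, KITLG was higher in line A than in line B, a difference that is part of the profile by which it was picked.

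VIM, the intermediate filament of mesenchymal cells, followed (0.68), then the stress gene GADD45G (0.70), the endothelial surface protein ECSCR (0.71) and the blood transcription factor TAL1 (0.74). VIM was at 1623 to 1848 TPM in primed cells with little difference between lines, and at 126 and 129.6 TPM in feeder-free naive-like cells against 286 and 271 TPM on MEFs. TAL1 was at 22.5 and 21.7 TPM in line A and at 4.98 and 5.68 TPM in line B. In naive-like cells it stayed at 0.0253 to 0.233 TPM, with no higher level on MEFs.

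**Figure D4:**
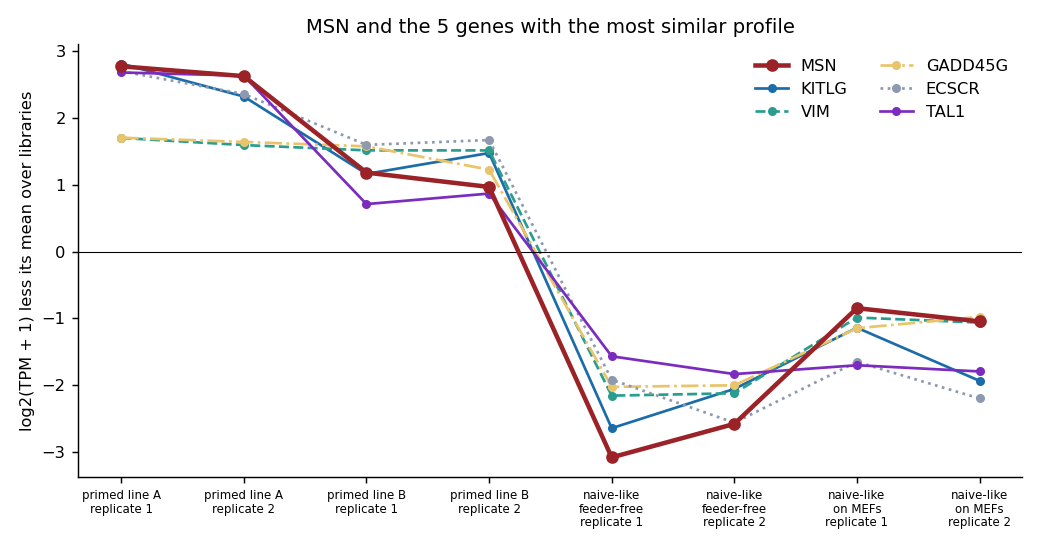
Log2(TPM + 1) less its mean over 8 libraries for MSN and the 5 closest genes, with lines only to guide the eye. MSN spans 5.85 from line A to feeder-free naive-like cells, and VIM and GADD45G are nearly level between the lines.

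The other 4 genes varied less, and many genes lay close to them. For EZR the closest were PES1 (0.0315), LARS2, TRIM26, EME2 and ACOT7, and for NF2 they were AXIN1 (0.0249), a scaffold of beta-catenin destruction, ACIN1, PPM1G, PPP1R18 and PSMC5. The closest to RDX was CDC42 (0.0468), a small GTPase that shapes the actin cortex, followed by SPAG1, SAMHD1, GRAMD2B and ACTR3, a subunit of the actin-nucleating Arp complex. For PODXL they were VGLL3 (0.0624), FLCN, GOLGA4, TMEM18 and CAP1, which binds actin monomers. Among the 5 genes themselves, EZR and NF2 were the closest pair (0.139) and MSN and EZR the farthest (2.38).

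In the gene order of RefSeq (assembly ARS-UI_Ramb_v3.0), the nearest 3 coding genes on each side of MSN were looked up after its values were seen. LAS1L was at 53.1 to 58.4 TPM in primed and 64.3 to 70.3 TPM in naive-like libraries, and ZC4H2 at 8.92 to 10.6 against at least 11.4 TPM. HEPH was at 0.551 to 1.61 TPM in primed libraries and at most 0.301 TPM in naive-like ones, the same direction as MSN, but it was higher in line B than in line A. ZC3H12B, LOC101112952 and VSIG4 stayed under 1 TPM in every library.

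Partners of these genes were counted in lists, beside the 50.7% of tested genes that passed between the states (28.6% higher and 22.1% lower in naive-like cells, with a median over all genes of 0.05). In these tests the libraries of a group counted as separate replicates of a state. Counts with each group averaged first are given after the lists. Among kinases and GTPases that activate ERM proteins, with the phosphatase that acts on them, 5 of 12 rose and 5 fell, with a median of −0.07. SLK, which phosphorylates the ERM tail, fell from 28.6 to 17.6 TPM (−0.68 ± 0.114, adjusted p = 0.00104), while its relative STK10 rose from 10.0 to 13.3 TPM (0.37 ± 0.0883, adjusted p = 0.00647). STK26 (−0.58 ± 0.0967) and the phosphatase subunit PPP1R12A (−0.32 ± 0.0634) fell, and MAP4K4 rose by 0.35 ± 0.0564. The kinase ROCK1 was at 47.5 against 47.8 TPM and did not pass.

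NHERF scaffolds tie ERM proteins to podocalyxin and to transporters. Of 4 scaffolds present, 2 were tested. NHERF2 fell from 10.3 to 6.71 TPM (−0.56 ± 0.128, adjusted p = 0.00537), and NHERF1, at 108 against 126 TPM, did not pass (adjusted p = 0.0541). With the libraries of each group averaged first, NHERF2 did not pass either. PODXL was the only tested gene of the CD34 family, since CD34 stayed under 1 TPM in every library.

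Membrane proteins that hold ERM proteins by their tails went both ways, with 2 of 9 tested rising and 4 falling (median 0.07). The syndecan SDC2 fell from 66.3 to 16.4 TPM (−1.95 ± 0.103, adjusted p = 8.20e-07). CD44, the hyaluronan receptor, fell from 4.13 to 2.02 TPM (−0.76 ± 0.161), as did SPN (−0.53 ± 0.102) and ICAM3 (−0.68 ± 0.154). The adhesion molecule L1CAM rose from 12.6 to 27.8 TPM (1.08 ± 0.0662, adjusted p = 2.01e-06) and the mucin MUC1 from 0.602 to 2.75 TPM (1.22 ± 0.168). MUC1 was under 1 TPM in every primed library, so it passed the filter only through naive-like libraries.

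Of 14 partners of merlin in Hippo signalling, 6 fell, 1 rose and 7 did not pass (median −0.17). AMOT, a scaffold that binds merlin and YAP, fell from 13.9 to 7.68 TPM (−0.78 ± 0.0917, adjusted p = 0.000115) and the Hippo kinase STK3 from 28.5 to 17.7 TPM (−0.66 ± 0.0920). FRMD6 (−0.68 ± 0.160) and WWC2 (−0.30 ± 0.0694) fell as well. The kinases LATS1 and LATS2, at 16.5 against 18.1 and at 12.4 against 11.7 TPM, did not pass.

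Other genes with a FERM domain were measured as the wider family. Of 25 tested, 9 rose, 11 fell and 5 did not pass (median 0.07). EPB41L3, a protein of the membrane skeleton, rose from 11.9 to 52.6 TPM (2.11 ± 0.195, adjusted p = 2.71e-05). FRMD4B (−1.71 ± 0.121), the phosphatase PTPN14 (−1.42 ± 0.112), EPB41L1 (−1.26 ± 0.163) and EPB41, which anchors spectrin in red cells (−1.12 ± 0.0906), fell. FRMD4B was at most 0.629 TPM in naive-like libraries and passed the filter only through primed ones.

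Of 6 tested microvillus proteins, PROM1, a cholesterol-binding protein of membrane protrusions, fell from 49.9 to 11.0 TPM (−2.09 ± 0.110, adjusted p = 7.78e-07). BAIAP2L1, which bends membranes at actin protrusions, rose from 6.01 to 31.2 TPM (2.23 ± 0.149, adjusted p = 3.57e-06), and the other 4 did not pass (median −0.0046).

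Among genes that carry podocalyxin to the apical surface or set apical polarity, 7 of 15 rose and 3 fell (median 0.10). RAB27A (1.86 ± 0.123, adjusted p = 3.27e-06) rose and its paralog RAB27B (−1.39 ± 0.0995, adjusted p = 5.47e-06) fell. The apical determinant CRB3 rose from 10.2 to 29.2 TPM (1.42 ± 0.124) and the motor MYO5B from 5.95 to 15.6 TPM (1.27 ± 0.106). In the spectrin and actin cortex 3 of 14 rose and 3 fell (median 0.08). ANK3, which links membrane proteins to spectrin, rose from 14.2 to 32.6 TPM (1.15 ± 0.0858), and the actins ACTB and ACTG1 did not pass (adjusted p = 0.119 and 0.928).

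**Figure D5:**
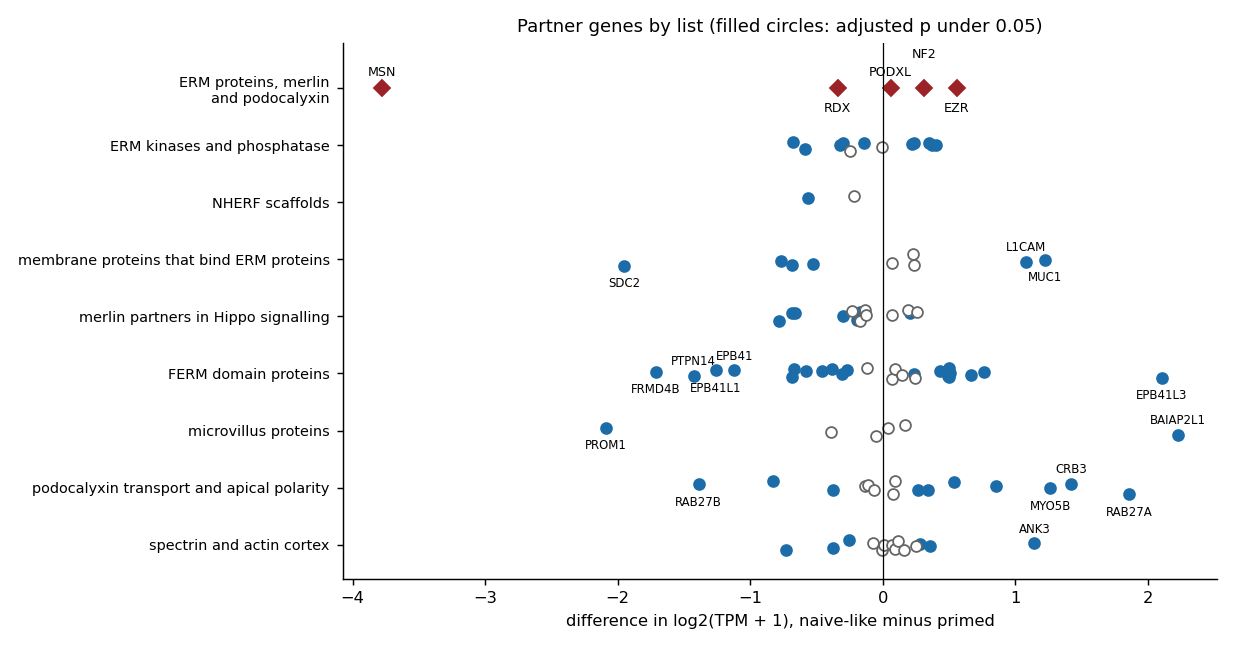
Difference in log2(TPM + 1) between naive-like and primed libraries for 8 lists of partner genes (circles, filled at an adjusted p under 0.05, vertical scatter only to separate points) and for the 5 genes described (diamonds, given without a test). Partner genes lie on both sides of 0, from −2.09 (PROM1) to 2.23 (BAIAP2L1).

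With the libraries of each group averaged before the test, 3 of the 12 ERM kinases, GTPases and phosphatase subunits passed in place of 10, 2 of the 14 merlin partners in place of 7, 11 of the 25 FERM genes in place of 20, 6 of the 15 apical genes in place of 10, 4 of the 14 cortex genes in place of 6, 5 of the 9 membrane partners in place of 6 and 0 of the 2 NHERF scaffolds in place of 1. Of all genes, 4023 passed then in place of 7493. In feeder-free naive-like cells against primed cells, where 56.4% of all genes passed (30.8% higher, 25.6% lower), the counts were 11 of 12 ERM kinases, GTPases and phosphatase subunits, 2 of 2 NHERF scaffolds, 7 of 9 membrane partners, 9 of 14 merlin partners, 19 of 25 FERM genes, 4 of 6 microvillus proteins, 9 of 15 apical genes and 9 of 14 cortex genes.

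Of the 96 different partners tested, 61 were called between the states (63.5%, against 50.7% of all genes). Where only feeder-free libraries stood for the naive-like state, 69 were called (71.9%, against 56.4%). Both shares were above those of all genes, and this excess was not tested. Within a state, 4 partners were called between the lines (4.17%, against 7.36% of all genes). On MEFs 7 were called (7.29%, against 5.16%), and these 2 shares were near those of all genes. Between the lines, NHERF1 was higher in line B (138 against 114 TPM, 0.27 ± 0.0572, adjusted p = 0.0279), as was EPB41L3 (15.4 against 8.43 TPM, 0.80 ± 0.0746, adjusted p = 0.000663). BAIAP2L1 (−0.52 ± 0.113) and PATJ (−0.47 ± 0.114), a scaffold of apical polarity, were lower there. With limma, 0 of the 12 ERM kinases, GTPases and phosphatase subunits passed between the lines, as did 0 of 9 membrane partners, 0 of 14 merlin partners and 0 of 14 cortex genes. At an unadjusted p under 0.05 these counts were 4, 2, 1 and 3. The share of all genes at that threshold was not computed, so these counts cannot be set against it.

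On MEFs, the microvillus bundler VIL1 was at 8.37 TPM against 3.86 TPM without feeders (0.95 ± 0.130, adjusted p = 0.00733), and PROM1 was higher too (0.36 ± 0.0825, adjusted p = 0.0494). STK26 (−0.34 ± 0.0726), ICAM1 (−0.54 ± 0.119), PTPN21 (−0.40 ± 0.0704) and the myosin light chain MYL9 (−0.36 ± 0.0674) were lower on MEFs, and PTPN13 was higher (0.46 ± 0.0940). Without either library on MEFs, the calls among microvillus proteins and among FERM genes went from 2 each to 0.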

How the data were processed

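The authors deposited a single table of TPM (transcript levels corrected for length and depth) in which each column sums to 1000000. It was made with Salmon, per the submitters' processing notes; the sources used here do not give its version, the genome build or the annotation. By symbol, 28429 of its 28475 genes were in a RefSeq annotation of sheep, which was used only for names and gene order.

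From these values log2(TPM + 1) was computed, with a pseudocount of 1, and a gene was tested if 2 or more libraries held 1 TPM or more, which left 14779 genes. A gene could pass only through the group where it was high, and its call is then a description. This held for MUC1, FOXA2, FRMD4B and PRRX1, and for FRMD3 and SYTL2 in the counts. limma 3.58.1 in R 4.3.3 was used with a trend of variance on mean level. Naive-like and primed cells were fitted as 2 groups, and the other comparisons as contrasts among 4 groups. Tests were two-sided, with Benjamini-Hochberg adjustment over all genes and a threshold of 0.05. Log2 values carry standard errors and understate changes of genes with low TPM. The procedure was run on simulated libraries with independent noise at the spread within groups. Apart from the changes put in, these libraries held no differences between groups. Spread between lines or feeder conditions within a state was therefore not covered.

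Members, gene lists and alternatives were chosen with earlier results of these data known. Listed genes were named by smallest adjusted p, up to 4 in each comparison, or for a change of at least 2-fold; in the text a selection of these is given, with others named after their values were seen.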

Additional observations from a re-analysis of the deposited data

How the results depend on the processing

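Alternatives changed the pseudocount (0.1 or 5), the filter (none, or means from 5 TPM up), the scaling (median-ratio or quantile) and the variance trend (none), and added a replicate block, another grouping of the fit, means of groups and the removal of each library, where a lone library is assumed to vary like the other groups. Causes were not tested. For MSN, the state difference was −2.71 with a pseudocount of 5. Between feeder-free naive-like and primed cells it was −5.77 with 0.1 and −3.14 with 5, and −4.97 to −4.47 with single libraries left out. There EZR was at 0.61 and RDX at −0.40 after quantile normalization, and PODXL at 0.11 to 0.36 with libraries left out. EZR on MEFs stayed at −0.27 but did not pass with no filter (adjusted p = 0.0526), no trend (0.106) or the groups alone (0.0797), and spanned −0.30 to −0.24 with libraries left out. RDX between lines did not pass with no filter (0.30, adjusted p = 0.0516), median-ratio scaling (0.24, 0.107), quantile normalization (0.24, 0.0899), no trend (0.30, 0.0768) or the groups alone (0.30, 0.0962), and spanned 0.26 to 0.35 with libraries left out. PODXL on MEFs passed with median-ratio scaling (−0.38).

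Genes called numbered 4023 for state with group means. For MEFs they numbered 497 with no filter, 235 with the groups alone and 160 to 644 with libraries left out, against 762. For lines they numbered 420 with the groups alone and 363 to 1223 with libraries left out, against 1087. Between the lines, 618 genes were higher and 469 lower in line B, but 404 and 603 with median-ratio scaling and 476 and 617 after quantile normalization. The ERM sum was 305 TPM in line A and 268 TPM on MEFs with median-ratio scaling. With NF2 included it was 321, 284, 357 and 309.6 TPM in line A, line B, feeder-free and MEF cells. For the lists, 61 of 641 recounts moved by more than 1.5-fold.

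Deviations of same-numbered libraries correlated at −0.0748 to 0.0973 over genes, so the main fits did not pair libraries by replicate number. Such weak correlations cannot show whether same-numbered libraries were handled together. With the replicate block, PODXL on MEFs passed (−0.35, adjusted p = 0.0311) and RDX between lines did not (0.30, adjusted p = 0.0515), while the genes called numbered 7237 for state, 8407 for feeder-free against primed cells, 697 for MEFs and 1050 for lines.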
